A study of Mus musculus with 9 samples.

Results

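The unfolded protein response of the endoplasmic reticulum (ER) was followed through 34 genes in murine leukaemia cells depleted of Syncrip, an hnRNP protein that binds RNA. The genes were a fixed list of gene symbols covering the sensors of the response, the ER chaperones, the disulfide enzymes, the machinery of ER-associated degradation and the translocon. All 34 had an entry in each of the 9 count tables, which held 38926 symbols, and all 34 were among the 12663 genes that passed the filter on low counts.

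The cells were leukaemia cells of the mouse that carry the fusion gene MLL-AF9 and had been transplanted to the tertiary recipient. They were transduced with shRNA-1 or shRNA-2, both short hairpin RNAs against Syncrip, or with a control hairpin, which the sample labels call scrambled and the design text calls a luciferase hairpin. RNA was taken at day 4 after transduction in 3 libraries per group. Every sample was transduced and processed on its own, so p-values cover the spread among cultures that were each handled alone and may all stem from 1 leukaemia, and all groups share the fusion gene, the transplanted origin and the transduction.

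Proteins enter the ER through the translocon, are glycosylated, folded by chaperones and joined by disulfide bonds, and proteins that fail to fold are drawn back into the cytosol for ER-associated degradation. The membrane sensors IRE1 (encoded by Ern1), PERK (Eif2ak3) and ATF6 are held quiet by the chaperone BiP (Hspa5). When released, IRE1 splices the mRNA of Xbp1 into its active form, PERK slows translation while favouring that of Atf4, and ATF6 travels to the Golgi where site-1 and site-2 proteases free its transcription factor domain. In the blood system the IRE1 to XBP1 branch is best known from plasma cells, whose secretion depends on it.

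XBP1 and the freed ATF6 fragment bind ER stress response elements in the promoters of chaperone genes, so promoters of the 34 genes were searched for these letters in RefSeq sequence (GRCm38.p6, the assembly of mm10), from 250 bases before to 50 bases after the annotated start. A promoter was listed for 29 of the 34 genes, with a pair of starts for Derl2. None was listed for Atf6, Hyou1, Manf, Derl1 and Sec61a1. The element ERSE was searched as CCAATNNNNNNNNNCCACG and ERSE-II as ATTGGNCCACG, on both strands. ERSE was found in 9 of the 29 genes, against 39 of all 32851 promoters (0.119%), and ERSE-II in 2 of the 29, against 12 of all promoters (0.0365%). Among the 11006 promoters of genes that passed the filter on low counts, as all 34 did, the shares were 0.127% and 0.0727%. The stretches below carry these elements, and the capitals mark the element in either orientation, 5′ to 3′ on the strand of the gene.
Hspa5 (chr2:34772017-34772051, plus strand): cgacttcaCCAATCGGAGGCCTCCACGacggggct
Hsp90b1, upper element (chr10:86705630-86705664, minus strand): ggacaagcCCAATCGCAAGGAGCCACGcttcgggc
Hsp90b1, lower element (chr10:86705525-86705559, minus strand): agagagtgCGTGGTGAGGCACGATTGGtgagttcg
Dnajb11 (chr16:22857844-22857870, plus strand): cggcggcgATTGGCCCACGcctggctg
Dnajc3 (chr14:118937819-118937853, plus strand): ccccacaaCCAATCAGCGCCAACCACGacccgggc
Creld2 (chr15:88819512-88819546, plus strand): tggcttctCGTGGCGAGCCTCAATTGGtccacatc
Calr (chr8:84847067-84847101, minus strand): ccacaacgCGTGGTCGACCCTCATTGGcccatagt
Canx (chr11:50325792-50325826, minus strand): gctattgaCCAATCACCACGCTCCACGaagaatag
Pdia6 (chr12:17266483-17266517, plus strand): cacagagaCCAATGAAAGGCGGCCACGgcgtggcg
Herpud1 (chr8:94386369-94386395, plus strand): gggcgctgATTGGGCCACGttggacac
Derl3 (chr10:75893234-75893268, plus strand): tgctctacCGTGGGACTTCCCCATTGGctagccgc
Syvn1 (chr19:6046524-6046558, plus strand): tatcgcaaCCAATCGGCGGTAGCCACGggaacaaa

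These stretches are shown because they are the promoter letters that several of the genes below share, and they are referred to beside the results. The shorter core CCACG, which is part of both elements, was in 25 of the 29 genes and in 10765 of all promoters (32.8%). The XBP1-type element UPRE, searched as TGACGTGG, was in 0 of the 29 and in 222 of all promoters (0.676%). Among promoters of genes that passed the filter these shares were 47.3% for CCACG and 0.854% for UPRE. A match is a description of the letters in this window and no measurement of binding.

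Levels are given as CPM, the TMM-scaled counts relative to the library size, and log2 fold changes as estimate ± standard error from edgeR's quasi-likelihood test over 3 libraries per group. A gene was called when its Benjamini-Hochberg adjusted p over all 12663 genes was under 0.05. The libraries held 9559638 to 13416141 counts for shRNA-1, 14953491 to 15915940 for shRNA-2 and 13683660 to 19483923 for the control. Syncrip itself averaged 17.8 ± 2.13 CPM with shRNA-1, 56.7 ± 9.05 with shRNA-2 and 227 ± 17.5 with the control (SD, n = 3 each). Hoxa9, the homeobox gene that MLL fusions keep active, averaged 272 ± 8.38 CPM with shRNA-1, 147 ± 7.03 with shRNA-2 and 399 ± 35.9 with the control. It was detected in every group, with lower means in both hairpin groups than in the control. Its detection does not by itself establish the label of the cells. Ribosomal RNA (Gm26924, mt-Rnr1 and mt-Rnr2) took 15.4 ± 3.69% of the counts with shRNA-1, 10.7 ± 4.84% with shRNA-2 and 6.97 ± 1.92% with the control. Scaling to total counts in place of TMM put the median log2 fold change over all genes at -0.23 for shRNA-1 and at -0.21 for shRNA-2, so every change here is relative to the bulk of genes.

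With shRNA-1, 9 of the 34 genes were higher than in the control and 4 were lower. That is 13 called, against 34.7% of all genes called in that comparison (17.4% higher and 17.3% lower). With shRNA-2, 18 were higher and 2 were lower, against 48.7% of all genes called (24.4% higher and 24.2% lower). The median log2 fold change of the 34 was 0.21 with shRNA-1 and 0.41 with shRNA-2, against 0.02 and 0.00 over all genes tested. With total-count scaling the split became 3 higher and 10 lower with shRNA-1, where the median of the 34 turned to -0.03, and 10 higher and 4 lower with shRNA-2. The rises that lost their call under that scaling were those of Sdf2l1, Manf, Pdia6, Derl2, Syvn1 and Sec61b with shRNA-1, and those of Eif2ak3, Xbp1, Dnajb11, Manf, Pdia3, Ero1l, Derl1 and Os9 with shRNA-2. Calls gained were falls, in Dnajc3, Calr, Pdia3, P4hb, Ero1l and Ssr1 with shRNA-1 and in Hspa5 and Dnajc3 with shRNA-2. Under that scaling 23.8% of all genes called for shRNA-1 and 33.6% of those called for shRNA-2 were higher, against 50.1% and 50.2% under TMM. The libraries did not overlap the controls in 23 of the 34 genes with shRNA-1, 16 above and 7 below, against 52.6% of all genes (26.8% above and 25.8% below). With shRNA-2 this held for 18 of the 34, 15 above and 3 below, against 55.4% of all genes (27.3% above and 28.1% below), a share of the 34 close to that background. At least 1 of the hairpins gave a call in 23 of the 34, against 61.8% of all genes. In bulk RNA, fewer cells of a type and less RNA per cell cannot be told apart.

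Dnajb9, Sdf2l1, Manf, Derl2, Derl3, Edem1, Syvn1 and Sec61b were higher with both hairpins. Those 8 genes compare with 9.24% of all genes higher with both, and 0 of the 34 were lower with both, against 9.57% of all genes. At an unadjusted edgeR p under 0.05 the count lower with both was also 0, as it was with DESeq2 and limma-voom at an adjusted p under 0.05. With total-count scaling 2 genes, Hspa5 and Dnajc3, were lower with both. Both comparisons use the same 3 control libraries. Of the 8, Sdf2l1 and Manf lost a call in some of the 9 fits that each dropped 1 library, and the other 6 kept both calls in all of them. In a fit that also held the ribosomal RNA share (log2) as a covariate, Dnajb9, Derl3, Edem1 and Syvn1 kept both calls. That share was higher in every shRNA-1 library than in every control. A shRNA-1 call lost in that fit, here and below, cannot be told apart from a loss of precision. With total-count scaling Dnajb9, Derl3 and Edem1 kept both. In 10 of the 34 genes all 6 knockdown libraries lay above all 3 controls, against 12.9% of all genes, and in 1 (Hspa5) they lay below, against 14.4%.

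**Figure D1:**
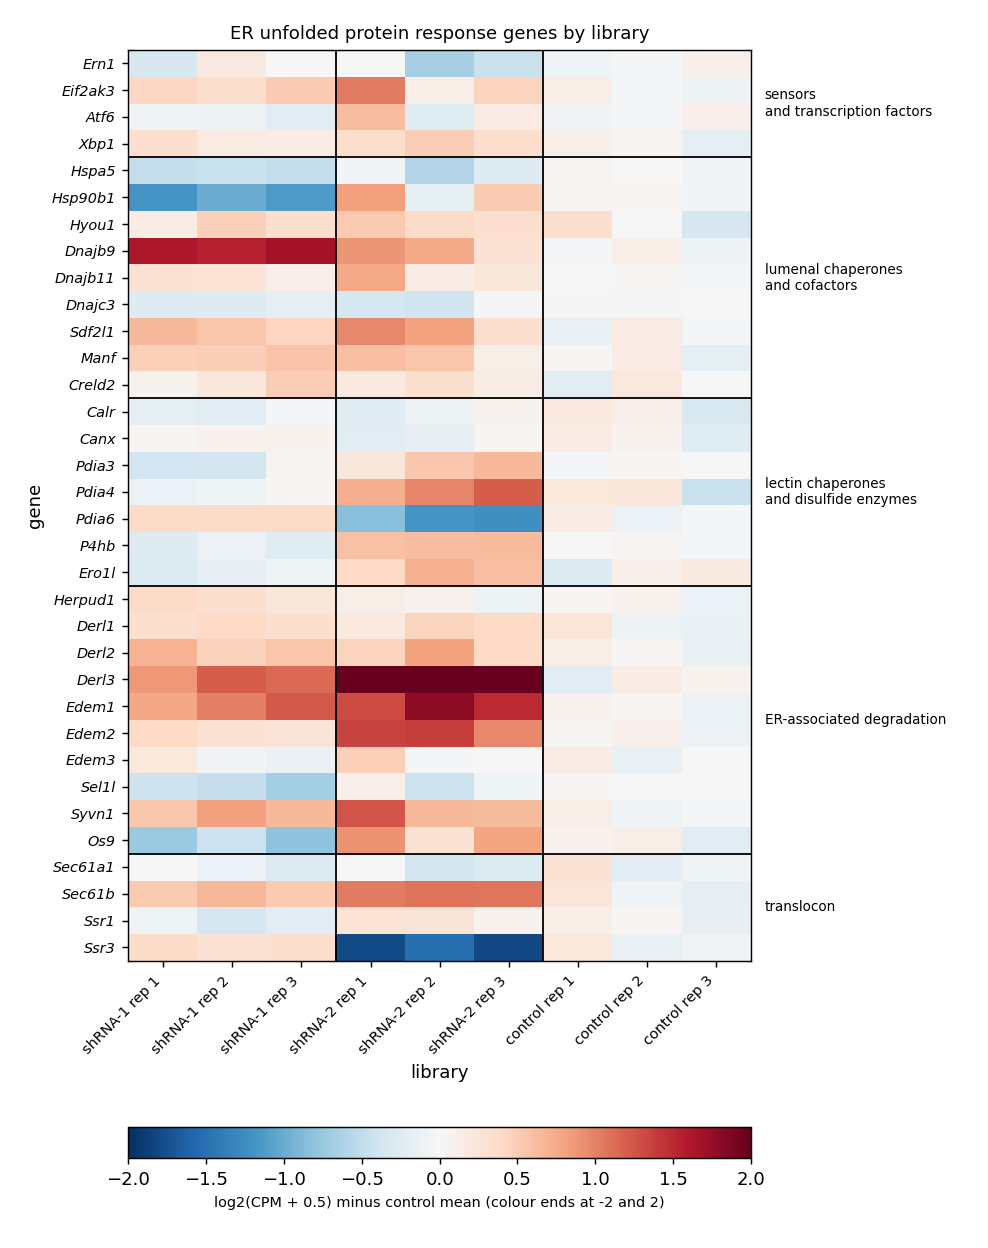
Level of each of the 34 genes in each of the 9 libraries, as log2(CPM + 0.5) minus the mean of the 3 controls, with genes grouped by role. Dnajb9, Derl3 and Edem1 are above the controls in all 6 knockdown libraries, Hsp90b1 is below them in all 3 shRNA-1 libraries, and Ssr3 and Pdia6 are below them in all 3 shRNA-2 libraries.

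The counts of each role group, here and below, stand against 17.4% of all genes higher and 17.3% lower with shRNA-1. With shRNA-2 these shares were 24.4% and 24.2%, and between the hairpins 19.7% and 21.3%. Higher with both were 9.24% of all genes. Of the sensors and Xbp1, all 4 were not called with shRNA-1, and Eif2ak3 and Xbp1 were higher with shRNA-2. Ern1, which encodes IRE1, had 13.3, 19.0 and 16.8 CPM in the shRNA-1 libraries, 16.5, 10.4 and 12.1 CPM in the shRNA-2 libraries and 15.7, 16.4 and 17.9 CPM in the controls. The shRNA-1 libraries spread around the controls, and shRNA-2 replicates 2 and 3 lay below them. The log2 fold changes were -0.02 ± 0.19 with shRNA-1 and -0.35 ± 0.19 with shRNA-2, neither of them called (edgeR adjusted p = 0.938 and 0.133). Without shRNA-2 replicate 1, the one shRNA-2 library inside the control range, Ern1 was called lower with shRNA-2 (log2 fold change -0.55, adjusted p = 0.0186). Atf6 had 29.2, 28.7 and 26.7 CPM with shRNA-1, 47.6, 26.1 and 34.6 CPM with shRNA-2 and 29.5, 30.3 and 33.0 CPM in the controls. The shRNA-2 values straddled the controls, with replicate 1 highest, and neither log2 fold change was called (-0.13 ± 0.18 and 0.23 ± 0.18). Without shRNA-2 replicate 2, the lowest of that group, Atf6 was called higher with shRNA-2 (adjusted p = 0.0387).

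Eif2ak3 encodes PERK, the kinase that phosphorylates the initiation factor eIF2 alpha. It had 13.6, 13.1 and 14.7 CPM with shRNA-1, 21.2, 11.1 and 14.0 CPM with shRNA-2 and 11.2, 9.94 and 9.37 CPM in the controls. The shRNA-1 libraries all lay above the controls, and of the shRNA-2 libraries replicate 2 touched the control range while replicate 1 was far above it. Its log2 fold change was 0.61 ± 0.21 with shRNA-2 (edgeR adjusted p = 0.0296) and 0.44 ± 0.21 with shRNA-1, which was not called (adjusted p = 0.126). The shRNA-2 call was lost without shRNA-2 replicate 1, where the log2 fold change was 0.32, and without control replicate 2 or 3, with adjusted p up to 0.124. Without shRNA-2 replicate 1 the shRNA-1 difference was called instead (adjusted p = 0.0323).

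Xbp1, the transcription factor whose mRNA IRE1 splices, had 424, 377 and 374 CPM with shRNA-1, 431, 475 and 433 CPM with shRNA-2 and 366, 351 and 299 CPM in the controls. All 6 knockdown libraries were above all controls, by a narrow margin for shRNA-1. On the log2 scale the fold change was 0.21 ± 0.12 with shRNA-1, not called (edgeR adjusted p = 0.212), and 0.40 ± 0.12 with shRNA-2 (adjusted p = 0.0200). Counts per gene do not separate spliced from unspliced Xbp1 mRNA. The shRNA-2 call was lost without control replicate 3, the lowest control (adjusted p = 0.0738), with the ribosomal RNA covariate (log2 fold change 0.32, adjusted p = 0.0570) and with total-count scaling (0.18, adjusted p = 0.244). Total-count scaling also turned the shRNA-1 value to -0.04.

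The lumenal chaperones and their cofactors split. Of 9 such genes, 3 were higher, 2 lower and 4 not called with shRNA-1, and 4 were higher and 5 not called with shRNA-2. Their median log2 fold change was 0.27 with shRNA-1 and 0.41 with shRNA-2, or 0.01 and 0.20 with total-count scaling.

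Hspa5 encodes BiP, the HSP70 chaperone of the ER lumen that both folds proteins and restrains the sensors, and it carries the ERSE printed above. It had 1122, 1148 and 1129 CPM with shRNA-1, 1509.9, 1049 and 1308 CPM with shRNA-2 and 1634, 1554 and 1517 CPM in the controls. All 6 knockdown libraries lay below all controls, though shRNA-2 replicate 1 came within a few CPM of the lowest control. Against the control, the log2 fold change was -0.47 ± 0.15 with shRNA-1 (edgeR adjusted p = 0.0294) and -0.28 ± 0.15 with shRNA-2, which was not called (adjusted p = 0.134). Dropping any single library of the shRNA-1 or control groups ended the shRNA-1 call, with adjusted p up to 0.0812 and log2 fold changes from -0.49 to -0.44. Without shRNA-2 replicate 1 the shRNA-2 difference was called lower (log2 fold change -0.40, adjusted p = 0.0344).

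Hsp90b1 encodes GRP94, the HSP90 of the ER lumen, which folds client proteins such as integrins and Toll-like receptors. It had 273, 310.5 and 281 CPM with shRNA-1, 1093, 535 and 875 CPM with shRNA-2 and 626, 629.9 and 592 CPM in the controls. All shRNA-1 libraries were far below the controls, while shRNA-2 replicates 1 and 3 were above the controls and replicate 2 below them. With shRNA-1 Hsp90b1 was 2.14-fold lower (log2 fold change -1.10 ± 0.21, edgeR adjusted p = 0.00239), a call kept in all 9 fits that left out 1 library. With shRNA-2 the log2 fold change was 0.44 ± 0.21 and not called (adjusted p = 0.0990), but without shRNA-2 replicate 2 it was called higher (0.68, adjusted p = 0.00214). Between the hairpins it was lower with shRNA-1 (log2 fold change -1.53 ± 0.21, adjusted p = 0.000177). Hsp90b1 carries a pair of ERSE copies, printed above, and its exons overlap those of Gm15344, Gm25745 and 1810014B01Rik. No source used here gives the strand setting of the counting, so reads of overlapping genes cannot be told apart.

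Dnajb9 encodes ERdj4, a DnaJ cofactor of BiP that keeps IRE1 inactive and is a known target of XBP1 (chromosome 12, 44205559 to 44210326, minus strand of mm10). It had 34.3, 32.3 and 35.4 CPM with shRNA-1, 20.3, 18.6 and 13.3 CPM with shRNA-2 and 10.5, 11.9 and 10.04 CPM in the controls. The 3 groups did not overlap, with shRNA-1 highest and the control lowest. Dnajb9 was 3.15-fold higher with shRNA-1 (log2 fold change 1.65 ± 0.16, edgeR adjusted p = 6.55e-05) and 1.61-fold higher with shRNA-2 (0.69 ± 0.16, adjusted p = 0.00407). Between the hairpins it was higher with shRNA-1 (log2 fold change 0.96 ± 0.16, adjusted p = 0.000572). Its RefSeq promoter held neither ERSE nor ERSE-II, and its exons overlap those of Mir5627 on the other strand.

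Sdf2l1, a partner of the ER DnaJ protein ERdj3, had 269, 254 and 231 CPM with shRNA-1, 336, 302 and 216 CPM with shRNA-2 and 155, 194 and 169.5 CPM in the controls. All knockdown libraries were above all controls, and the hairpin groups overlapped each other. The log2 fold change was 0.54 ± 0.16 with shRNA-1 (edgeR adjusted p = 0.0235) and 0.72 ± 0.16 with shRNA-2 (adjusted p = 0.00331). For shRNA-1 the call was lost without shRNA-1 replicate 1 or 2 or control replicate 1 or 3, with adjusted p up to 0.0774. It was also lost with the ribosomal RNA covariate, where the log2 fold change was 0.65 (adjusted p = 0.0931), and with total-count scaling (0.29, adjusted p = 0.215).

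Manf, a secreted ER protein that protects cells under ER stress, had 419, 425 and 446 CPM with shRNA-1, 458, 444 and 326 CPM with shRNA-2 and 306, 337 and 264 CPM in the controls. The shRNA-1 libraries were all above the controls, and shRNA-2 replicate 3 fell inside the control range. Its log2 fold change was 0.51 ± 0.15 with shRNA-1 (edgeR adjusted p = 0.0221) and 0.44 ± 0.15 with shRNA-2 (adjusted p = 0.0306). Leaving out shRNA-1 replicate 2 or 3 or control replicate 3 ended the shRNA-1 call (adjusted p up to 0.0914), and leaving out shRNA-2 replicate 1 or 2 or control replicate 1 or 3 ended the shRNA-2 call (up to 0.103). The ribosomal RNA covariate ended both, with log2 fold changes of 0.43 and 0.40 (adjusted p = 0.210 and 0.0607), as did total-count scaling (0.26 and 0.22). The exons of Manf overlap those of Rbm15b on the same strand and Dcaf1 and 4930524O07Rik on the other.

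Dnajb11 encodes ERdj3, a soluble DnaJ cofactor of BiP whose promoter carries the ERSE-II printed above. It had 162, 159.9 and 142 CPM with shRNA-1, 226, 147 and 155 CPM with shRNA-2 and 133, 135 and 130.3 CPM in the controls. All 6 knockdown libraries were above the controls, with shRNA-2 replicate 1 well above the rest. On the log2 scale the fold change was 0.22 ± 0.16 with shRNA-1, not called (edgeR adjusted p = 0.30), and 0.41 ± 0.16 with shRNA-2 (adjusted p = 0.0474). The shRNA-2 call was lost in 7 of the 9 fits that left out 1 library, all except those without shRNA-2 replicate 2 or 3, with adjusted p up to 0.166 without shRNA-2 replicate 1, where the log2 fold change was 0.20.

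Hyou1, Dnajc3 and Creld2 complete the group and were called with neither hairpin. Hyou1, the large HSP70 that exchanges nucleotide on BiP, had log2 fold changes of 0.31 ± 0.17 and 0.40 ± 0.17 for shRNA-1 and shRNA-2. Without control replicate 1 Hyou1 was called higher with both hairpins (adjusted p = 0.0424 and 0.0126), and with the replicate number as a block the shRNA-2 difference was called (adjusted p = 0.0468). Dnajc3, which encodes the PERK inhibitor p58IPK and carries an ERSE, had log2 fold changes of -0.23 ± 0.12 and -0.25 ± 0.12, and without shRNA-2 replicate 3 it was called lower with shRNA-2 (adjusted p = 0.0279). Creld2, which carries an ERSE and encodes a secreted ER protein, had 0.27 ± 0.15 and 0.21 ± 0.15, and no fit that left out 1 library called it.

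Of the 7 lectin chaperones and disulfide enzymes, 5 differed between the hairpins, 1 higher and 4 lower with shRNA-1 than with shRNA-2, and Calr and Canx were not called in that comparison. Against the control, 1 was higher and 6 were not called with shRNA-1, while 4 were higher, 1 lower and 2 not called with shRNA-2. Their median log2 fold change was -0.16 with shRNA-1 and 0.49 with shRNA-2 (-0.41 and 0.26 with total-count scaling), and -0.70 between the hairpins, the lowest of the 5 role groups. The lectins calreticulin (Calr) and calnexin (Canx), which hold glycoproteins during folding and whose promoters carry an ERSE each, were called with neither hairpin. Calr had log2 fold changes of -0.16 ± 0.16 and -0.10 ± 0.16 for shRNA-1 and shRNA-2, and Canx had 0.05 ± 0.14 and -0.12 ± 0.14. With total-count scaling Calr was called lower with shRNA-1 (log2 fold change -0.41, edgeR adjusted p = 0.0492).

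P4hb encodes protein disulfide isomerase itself, the main catalyst of disulfide exchange. It had 722, 791 and 726 CPM with shRNA-1, 1297, 1316 and 1330.3 CPM with shRNA-2 and 851, 894 and 836 CPM in the controls. The groups did not overlap, with shRNA-2 highest and shRNA-1 lowest. Against the control, the log2 fold change was 0.61 ± 0.12 with shRNA-2 (edgeR adjusted p = 0.00128) and -0.21 ± 0.12 with shRNA-1, which was not called (adjusted p = 0.199), and the hairpins differed by -0.82 ± 0.12 (adjusted p = 0.000255). Total-count scaling brought the shRNA-1 difference past the threshold (log2 fold change -0.45, adjusted p = 0.0170).

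Ero1l, the oxidase that recharges protein disulfide isomerase, had 152, 164 and 173 CPM with shRNA-1, 241, 299.8 and 279 CPM with shRNA-2 and 152, 196 and 207 CPM in the controls. The shRNA-2 libraries were all above the rest, and shRNA-1 overlapped the control. The log2 fold change was 0.56 ± 0.14 with shRNA-2 (edgeR adjusted p = 0.00613) and -0.18 ± 0.14 with shRNA-1 (not called, adjusted p = 0.345), with a difference between hairpins of -0.75 ± 0.14 (adjusted p = 0.00151). The shRNA-2 call was lost with total-count scaling (adjusted p = 0.0734), which also called the shRNA-1 difference (log2 fold change -0.44, adjusted p = 0.0346).

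Pdia4 (ERp72) and Pdia3 (ERp57, the isomerase that works with calnexin and calreticulin) followed the same order of groups. Pdia4 had 60.3, 62.1 and 66.6 CPM with shRNA-1, 109.6, 129 and 153 CPM with shRNA-2 and 76.4, 77.0 and 48.4 CPM in the controls. Control replicate 3 was below every other library, and the shRNA-2 libraries were above all. Pdia4 was 1.94-fold higher with shRNA-2 (log2 fold change 0.96 ± 0.18, edgeR adjusted p = 0.00104) and not called with shRNA-1 (-0.09 ± 0.18, adjusted p = 0.724), with -1.05 ± 0.18 between the hairpins (adjusted p = 0.000797).

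Pdia3 had 126, 127 and 171 CPM with shRNA-1, 193, 239 and 259 CPM with shRNA-2 and 161, 169 and 163 CPM in the controls. The shRNA-2 libraries were above all others, and shRNA-1 replicate 3 was above the controls while replicates 1 and 2 were below. Its log2 fold change was 0.49 ± 0.15 with shRNA-2 (edgeR adjusted p = 0.0185) and -0.22 ± 0.15 with shRNA-1 (not called, adjusted p = 0.283), and -0.70 ± 0.15 between the hairpins (adjusted p = 0.00311). The shRNA-2 call was lost without shRNA-2 replicate 3 (adjusted p = 0.0737) and with the ribosomal RNA covariate (log2 fold change 0.34, adjusted p = 0.0801), and total-count scaling called Pdia3 lower with shRNA-1 (log2 fold change -0.47, adjusted p = 0.0217). The exons of Pdia3 overlap those of Catsper2, and those of Pdia4 hold Mir704.

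Pdia6 (ERp5), an isomerase that binds IRE1 and limits its signal, ran the other way. It had 624, 623 and 626 CPM with shRNA-1, 267, 212 and 205 CPM with shRNA-2 and 532, 439 and 469.8 CPM in the controls. The groups did not overlap, with shRNA-1 highest and shRNA-2 lowest. Pdia6 was 2.11-fold lower with shRNA-2 (log2 fold change -1.08 ± 0.14, edgeR adjusted p = 7.29e-05) and higher with shRNA-1 (0.38 ± 0.14, adjusted p = 0.0483), and the hairpins differed by 1.45 ± 0.14 (adjusted p = 1.34e-05). The rise with shRNA-1 was lost in 6 of the 9 fits that left out 1 library, all except those without shRNA-2 replicate 1 or 2 or control replicate 1, with adjusted p up to 0.178, while the fall with shRNA-2 and the difference between hairpins were kept in all 9. Its promoter carries the ERSE printed above, and its exons overlap those of Atp6v1c2 on the other strand.

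**Figure D2:**
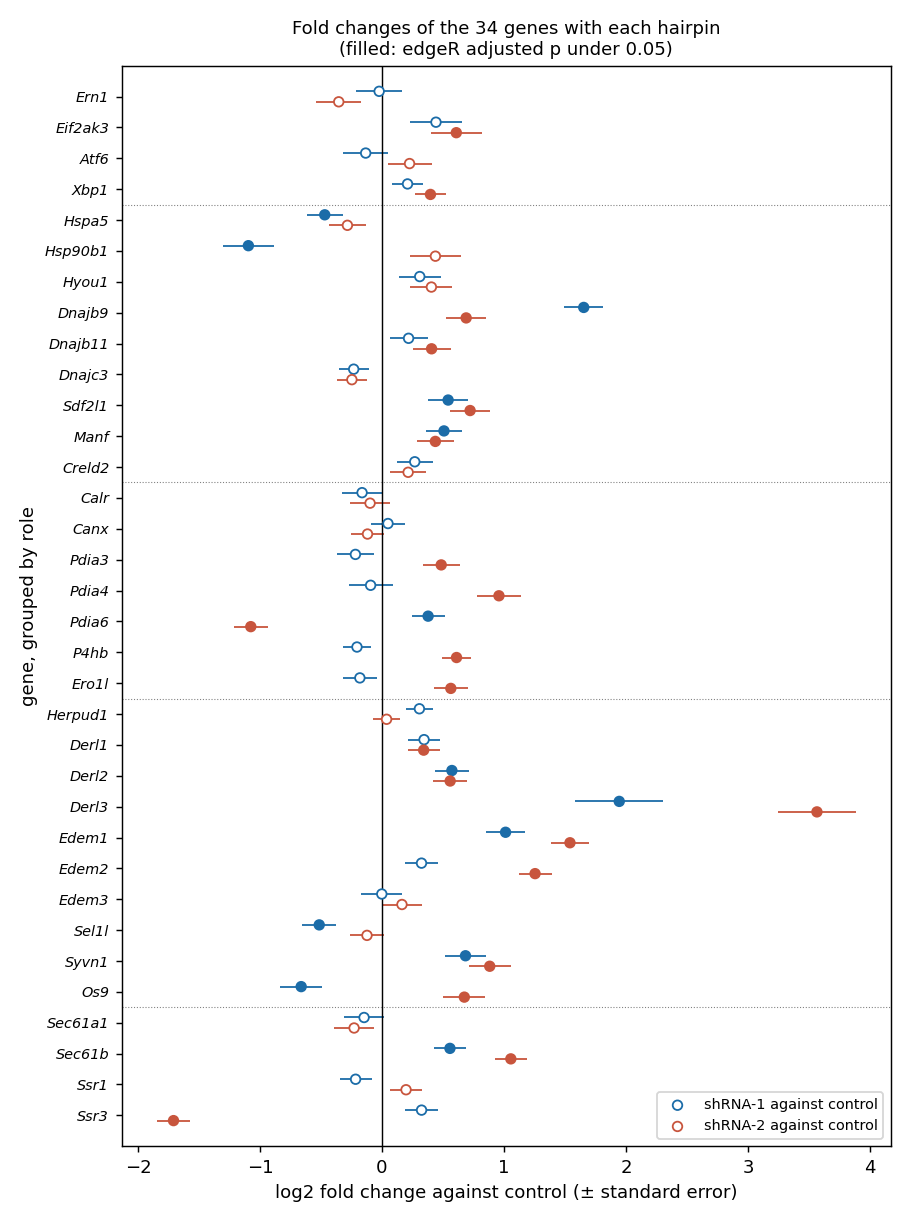
Log2 fold change of each of the 34 genes against the control, with its standard error, for shRNA-1 and shRNA-2, grouped by role from the sensors at the top to the translocon at the bottom. Filled points have an edgeR adjusted p under 0.05. Dnajb9, Derl3, Edem1 and Syvn1 lie right of 0 with both hairpins, and Pdia6 and Os9 lie on opposite sides.

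The 10 listed genes of ER-associated degradation had the highest median change of the 5 role groups with both hairpins. It was 0.33 with shRNA-1 and 0.62 with shRNA-2 on the log2 scale (0.09 and 0.40 with total-count scaling). The 26 other genes of ER-associated degradation described further below had medians of only 0.19 and 0.06. Of the 10 listed genes, 4 were higher, 2 lower and 4 not called with shRNA-1, and 7 were higher and 3 not called with shRNA-2. Derl2, Derl3, Edem1 and Syvn1 were higher with both.

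Derl3 belongs to the derlins, which help to draw proteins out of the ER, and is a known target of XBP1 (chromosome 10, 75893413 to 75895941, plus strand of mm10). It rested on few reads, with 9, 18 and 14 counts in the shRNA-1 libraries, 60, 56 and 51 in the shRNA-2 libraries and 4, 6 and 8 in the controls. That corresponds to 0.988, 1.38 and 1.29 CPM with shRNA-1, 3.68, 4.33 and 3.44 CPM with shRNA-2 and 0.203, 0.398 and 0.354 CPM in the controls, with no overlap between any of the groups. Derl3 was 3.85-fold higher with shRNA-1 (log2 fold change 1.94 ± 0.36, edgeR adjusted p = 0.00205) and 11.8-fold higher with shRNA-2 (3.57 ± 0.32, adjusted p = 6.12e-06). The hairpins differed by -1.62 ± 0.28 (adjusted p = 0.000827), and all 3 calls were kept in the 9 fits that left out 1 library. Its promoter holds the ERSE printed above, in the reverse orientation.

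Derl2, a second derlin, had 113, 96.3 and 103 CPM with shRNA-1, 94.9, 122 and 91.4 CPM with shRNA-2 and 76.3, 70.6 and 62.5 CPM in the controls. All knockdown libraries were above all controls and the hairpins overlapped each other. On the log2 scale the fold change was 0.57 ± 0.14 with shRNA-1 (edgeR adjusted p = 0.00868) and 0.56 ± 0.14 with shRNA-2 (adjusted p = 0.00588). The exons of Derl2 overlap those of Mis12 on the other strand. The shRNA-1 call was lost with the ribosomal RNA covariate (log2 fold change 0.29, adjusted p = 0.278) and with total-count scaling (adjusted p = 0.0564).

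Derl1, the derlin that docks at the retrotranslocation site, had 307, 320.1 and 304 CPM with shRNA-1, 278, 331 and 320.1 CPM with shRNA-2 and 286, 226 and 221 CPM in the controls. The shRNA-1 libraries were all above the controls, while shRNA-2 replicate 1 was below control replicate 1. Its log2 fold change was 0.34 ± 0.13 with shRNA-1, not called (edgeR adjusted p = 0.0621), and 0.34 ± 0.13 with shRNA-2, called at the edge of the threshold (adjusted p = 0.0497). The shRNA-2 call was lost in 7 of the 9 fits that left out 1 library, all except those without shRNA-2 replicate 1 or control replicate 1 (adjusted p up to 0.153), and the shRNA-1 difference was called without either of those libraries (adjusted p down to 0.0196).

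Edem1 encodes a mannosidase-like lectin that marks misfolded glycoproteins for disposal and is a known target of XBP1 (chromosome 6, 108828641 to 108859356, plus strand of mm10). It had 168, 198 and 230.3 CPM with shRNA-1, 243, 341 and 277 CPM with shRNA-2 and 104, 102 and 90.3 CPM in the controls. All groups were separate, with shRNA-2 highest and the control lowest. Edem1 was 2.02-fold higher with shRNA-1 (log2 fold change 1.01 ± 0.16, edgeR adjusted p = 0.000849) and 2.91-fold higher with shRNA-2 (1.54 ± 0.16, adjusted p = 1.59e-05). The difference between hairpins was -0.53 ± 0.15 (adjusted p = 0.0170), and it was lost without shRNA-1 replicate 1 or 2 or shRNA-2 replicate 2 (adjusted p up to 0.0760).

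Edem2, which starts the trimming of mannose on misfolded glycoproteins, had 51.3, 48.2 and 46.6 CPM with shRNA-1, 99.7, 103 and 76.1 CPM with shRNA-2 and 39.5, 41.6 and 35.6 CPM in the controls. The groups were separate, with shRNA-2 highest and the control lowest. Edem2 was 2.39-fold higher with shRNA-2 (log2 fold change 1.25 ± 0.14, edgeR adjusted p = 2.36e-05), and with shRNA-1 the log2 fold change was 0.32 ± 0.14 and not called (adjusted p = 0.0837). Between the hairpins the difference was -0.93 ± 0.14 (adjusted p = 0.000252). Edem3, the remaining member of the family, was called with neither hairpin, with log2 fold changes of 0.00 ± 0.17 and 0.16 ± 0.17 for shRNA-1 and shRNA-2.

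Syvn1 encodes HRD1, the ubiquitin ligase at the centre of the degradation complex (chromosome 19, 6046576 to 6053712, plus strand of mm10). It had 40.1, 48.2 and 43.1 CPM with shRNA-1, 65.5, 42.7 and 42.6 CPM with shRNA-2 and 29.7, 25.5 and 26.5 CPM in the controls. All knockdown libraries were above all controls, and shRNA-2 replicate 1 was the highest. Against the control, the log2 fold change was 0.68 ± 0.17 with shRNA-1 (edgeR adjusted p = 0.00999) and 0.88 ± 0.17 with shRNA-2 (adjusted p = 0.00123). With total-count scaling the shRNA-1 difference was not called (log2 fold change 0.44, adjusted p = 0.113). Its promoter carries the ERSE printed above, and its exons overlap those of Mrpl49 on the other strand.

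Sel1l, the adaptor that stabilises HRD1, did not follow its partner. It had 148, 142 and 123 CPM with shRNA-1, 210.3, 146 and 185 CPM with shRNA-2 and 199, 194 and 196 CPM in the controls. The shRNA-1 libraries were all below the controls, and the shRNA-2 libraries spread from below to above them. The log2 fold change was -0.51 ± 0.14 with shRNA-1 (edgeR adjusted p = 0.0156) and -0.12 ± 0.14 with shRNA-2 (not called, adjusted p = 0.492). For shRNA-1 the call was lost without shRNA-1 replicate 3 or control replicate 3 (adjusted p up to 0.0696). The hairpins differed by -0.39 ± 0.14 (adjusted p = 0.0430), a call lost in 8 of the 9 fits that left out 1 library, all except the one without shRNA-2 replicate 2 (adjusted p up to 0.160).

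Os9, the lectin that hands glycoproteins to the SEL1L and HRD1 complex, had 107, 132 and 102 CPM with shRNA-1, 334, 218 and 309 CPM with shRNA-2 and 188, 196 and 155 CPM in the controls. The groups did not overlap, with shRNA-2 highest and shRNA-1 lowest. Os9 was lower with shRNA-1 (log2 fold change -0.66 ± 0.17, edgeR adjusted p = 0.0123) and higher with shRNA-2 (0.67 ± 0.17, adjusted p = 0.00677), and the hairpins differed by -1.34 ± 0.18 (adjusted p = 0.000125). The shRNA-1 call was lost without shRNA-1 replicate 3 or control replicate 2 (adjusted p up to 0.0527), and the shRNA-2 call with total-count scaling (adjusted p = 0.0724). The difference between hairpins was kept in all 9 fits.

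Herpud1, a membrane protein that gathers the degradation complex and whose promoter holds the ERSE-II printed above, had 121, 117 and 109 CPM with shRNA-1, 102, 98.8 and 87.4 CPM with shRNA-2 and 95.7, 98.8 and 86.0 CPM in the controls. The shRNA-1 libraries were above all others, and shRNA-2 overlapped the control. It was called with neither hairpin (0.31 ± 0.11 and 0.04 ± 0.11, edgeR adjusted p = 0.0545 and 0.802). Without shRNA-2 replicate 1 or 2 the shRNA-1 difference was called (adjusted p down to 0.0349).

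The translocon genes had medians near those of all genes, 0.09 with shRNA-1, which turned to -0.16 with total-count scaling, and -0.02 with shRNA-2. Of the 4 genes, 1 was higher and 3 were not called with shRNA-1, and 1 was higher, 1 lower and 2 not called with shRNA-2. Sec61b, the small beta subunit of the channel, had 321, 356 and 321 CPM with shRNA-1, 465, 478 and 470.2 CPM with shRNA-2 and 267, 214 and 198 CPM in the controls. The groups were separate, with shRNA-2 highest and the control lowest. Its log2 fold change was 0.56 ± 0.13 with shRNA-1 (edgeR adjusted p = 0.00742) and 1.06 ± 0.13 with shRNA-2 (adjusted p = 6.62e-05), with -0.50 ± 0.13 between the hairpins (adjusted p = 0.010). For shRNA-1 the call was lost with the ribosomal RNA covariate (log2 fold change 0.48, adjusted p = 0.117) and with total-count scaling (adjusted p = 0.0906). Sec61a1, the channel itself, was called with neither hairpin (-0.15 ± 0.16 and -0.23 ± 0.16 for shRNA-1 and shRNA-2).

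Ssr3, the gamma subunit of the translocon-associated protein complex, had 428, 406 and 421 CPM with shRNA-1, 95.5, 116 and 95.1 CPM with shRNA-2 and 384, 303 and 316 CPM in the controls. The shRNA-2 libraries were far below all others, and the shRNA-1 libraries were all above the controls. Ssr3 was 3.27-fold lower with shRNA-2 (log2 fold change -1.71 ± 0.14, edgeR adjusted p = 3.39e-06) and not called with shRNA-1 (0.32 ± 0.13, adjusted p = 0.0776). The difference between hairpins, 2.03 ± 0.14, was the greatest among the 34 genes (adjusted p = 1.73e-06). Without shRNA-2 replicate 2 or control replicate 1 the shRNA-1 difference was called higher (adjusted p down to 0.0325). Ssr1, the alpha subunit of the same complex, had 459.7, 386 and 416 CPM with shRNA-1, 589.9, 580.1 and 510.2 CPM with shRNA-2 and 529.8, 503 and 433 CPM in the controls. It overlapped the control with either hairpin and was called with neither (-0.22 ± 0.13 and 0.20 ± 0.13). The hairpins differed by -0.41 ± 0.13 (adjusted p = 0.0249), a call lost without shRNA-1 replicate 2 or 3 (adjusted p up to 0.110).

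**Figure D3:**
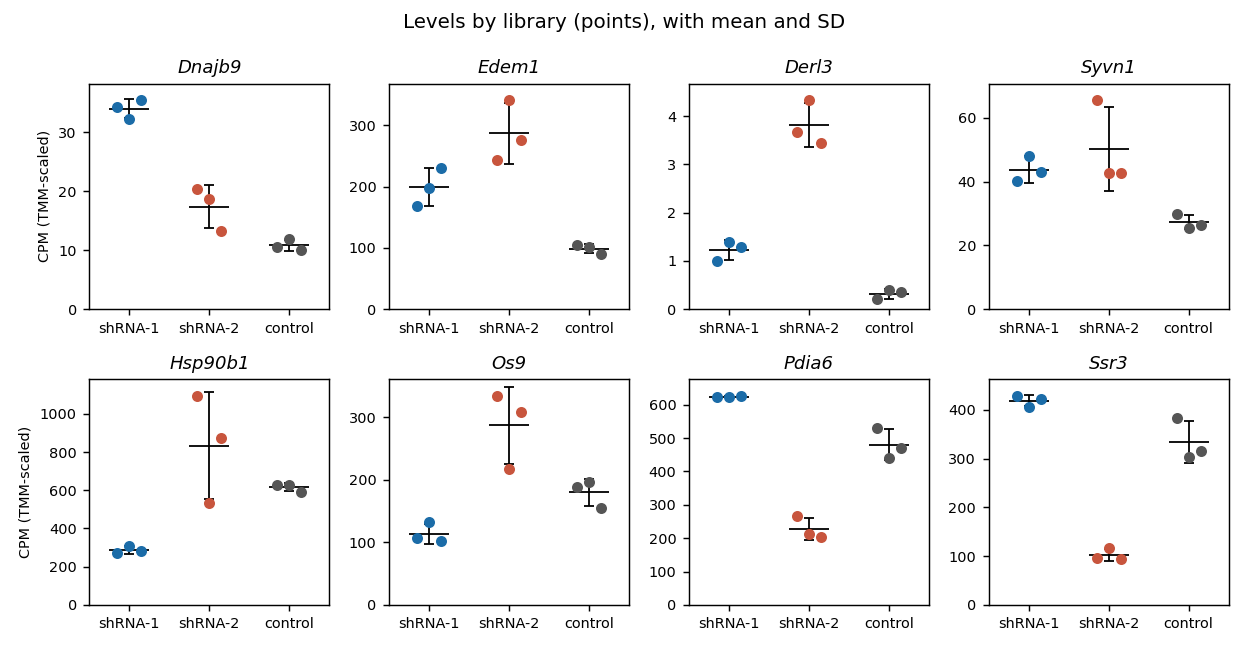
TMM-scaled CPM of 8 genes in each library, with the group mean and SD (n = 3 each). Dnajb9, Edem1, Derl3 and Syvn1 have every knockdown library above every control, while the group means of Hsp90b1, Os9, Pdia6 and Ssr3 stand on different sides of the control with shRNA-1 and shRNA-2.

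Directly compared, the hairpins differed in 15 of the 34 genes, against 41.0% of all genes called in that comparison. Dnajb9, Pdia6 and Ssr3 were higher with shRNA-1 than with shRNA-2 (19.7% of all genes), and 12 genes were lower (21.3% of all genes). Those 12 were Hsp90b1, Pdia3, Pdia4, P4hb, Ero1l, Derl3, Edem1, Edem2, Sel1l, Os9, Sec61b and Ssr1. The hairpin groups did not overlap in 16 of the 34, against 49.8% of all genes, with shRNA-1 above in 4 (25.5% of all genes) and below in 12 (24.3%). The median log2 difference of the 34 was -0.18, against 0.00 over all genes. Pdia6 and Os9 were called in opposite directions with the hairpins, against 2.66% of all genes. Of genes not called here, Ern1 was higher with shRNA-1 than with shRNA-2 without shRNA-2 replicate 1 (edgeR adjusted p = 0.0291), and Atf6 was lower without shRNA-2 replicate 2 (adjusted p = 0.0126).

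Library composition moved with these groups. The summed level of 13 macrophage marker genes was 149 to 209 CPM with shRNA-1, 566 to 970 CPM with shRNA-2 and 146 to 183 CPM in the controls. Of the 11 macrophage markers tested, 10 were higher with shRNA-2 while all 11 were not called with shRNA-1, and Cd163 was at 0 in all 6 knockdown libraries. The summed level of 11 neutrophil markers was 29076 to 37231 CPM with shRNA-1, 35294 to 50193 CPM with shRNA-2 and 12197 to 12663 CPM in the controls. Of the 10 neutrophil markers tested, 10 were higher with shRNA-1, and 8 were higher and 1 lower with shRNA-2. The 13 plasma and B cell markers, of which Derl3 is one, summed to 16.6 to 18.5 CPM with shRNA-1, 16.9 to 24.4 CPM with shRNA-2 and 17.03 to 21.3 CPM in the controls, with Cd79b giving most of the sum and Cd79a at 0 in all 9 libraries. Of the 5 plasma and B cell markers tested, 2 were higher with shRNA-1 (Prdm1 and Derl3), 3 were higher with shRNA-2 (these and Sdc1), and none was lower with either. Prdm1, a transcription factor of plasma cells and also of other blood cells, averaged 0.635 ± 0.231 CPM with shRNA-1, 1.19 ± 0.457 with shRNA-2 and 0.210 ± 0.0395 with the control. Sdc1, a surface proteoglycan used to mark plasma cells, averaged 0.170 ± 0.119 CPM with shRNA-1, 1.26 ± 0.350 with shRNA-2 and 0.174 ± 0.157 with the control. T cell markers summed to 9.45 to 16.3 CPM with shRNA-1, 21.04 to 37.8 CPM with shRNA-2 and 14.7 to 16.5 CPM in the controls, and 2 of the 3 tested (Cd3d and Il7r) were higher with shRNA-2. Stromal markers summed to 5.38 to 8.03 CPM with shRNA-1, 18.5 to 21.04 CPM with shRNA-2 and 16.6 to 28.9 CPM in the controls. Of the 2 stromal markers tested, Pecam1 was lower with shRNA-1 and Col1a1 higher with shRNA-2, and both were lower with shRNA-1 than with shRNA-2. Erythroid markers summed to at most 1.85 CPM in any library, and the 1 tested was called in no comparison. The part of these shifts in the results on the 34 genes was not tested. The 34 genes together held 0.923 ± 0.0403% of the counts with shRNA-1, 1.09 ± 0.144% with shRNA-2 and 1.15 ± 0.0495% with the control. These are shares of all counts, ribosomal RNA included. On the TMM scale the 34 summed to 9838 to 9868 CPM with shRNA-1, 10731 to 11816 CPM with shRNA-2 and 9464 to 11092 CPM in the controls. Both hairpin groups overlapped the controls on that scale.

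The ribosomal RNA share moved with the groups too, and a fit with that share as a covariate was made for every gene. Every shRNA-1 library had a higher share than every control, so the covariate overlapped with that comparison. A shRNA-1 call lost in that fit therefore cannot be told apart from a loss of precision. In that fit 1358 of all genes were called with shRNA-1, against 4389 without the covariate. With shRNA-1, 4 of the 9 rises and none of the 4 falls kept their call, while all 9 rises and 2 of the 4 falls (Hsp90b1 and Os9) had 50% or more of the log2 fold change from the fit without it. The log2 fold changes of the rises that lost a call were 0.65 for Sdf2l1, 0.43 for Manf, 0.54 for Pdia6, 0.29 for Derl2 and 0.48 for Sec61b. Without the covariate they were 0.54, 0.51, 0.38, 0.57 and 0.56, in the same order. Of the falls, Hsp90b1 had a log2 fold change of -0.60 (edgeR adjusted p = 0.129), Os9 of -0.39 (0.280), Hspa5 of -0.23 (0.473) and Sel1l of -0.20 (0.455). With shRNA-2, 14 of the 18 rises and both falls kept theirs, and all 20 had 50% or more of the log2 fold change too. Xbp1, Manf, Pdia3 and Derl1 lost their call, with log2 fold changes of 0.32, 0.40, 0.34 and 0.25. Atf6 and Hsp90b1 were called higher with shRNA-2 in that fit (log2 fold changes 0.44 and 0.63, adjusted p = 0.0190 and 0.0123).

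Read by promoter, the 11 genes with an ERSE or ERSE-II did not share a direction. With shRNA-1, 3 were higher (Pdia6, Derl3 and Syvn1), 2 were lower (Hspa5 and Hsp90b1) and 6 were not called, with a median log2 fold change of 0.22. With shRNA-2, 3 were higher (Dnajb11, Derl3 and Syvn1), 1 was lower (Pdia6) and 7 were not called, with a median of 0.04. The 18 genes with a listed promoter and neither element had 5 higher, 2 lower and 11 not called with shRNA-1 (median 0.10), and 13 higher, 1 lower and 4 not called with shRNA-2 (median 0.59). Over all genes tested 17.4% were higher and 17.3% lower with shRNA-1, and 24.4% and 24.2% with shRNA-2. These counts are given as a description, with no test.

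Genes of the same pathways outside the 34 were followed through lists of textbook members. Their counts stand against 34.7% of all genes called with shRNA-1 (17.4% higher and 17.3% lower), 48.7% with shRNA-2 (24.4% and 24.2%), 9.24% higher with both and 9.57% lower with both. The list for the PERK and CHOP arm had 20 genes tested. It also held the other eIF2 alpha kinase genes Eif2ak1, Eif2ak2 and Eif2ak4, and Dnajc10, so its counts are not of that arm alone. Of the 20, 3 were higher and 6 lower with shRNA-1, and 5 were higher and 6 lower with shRNA-2. With both hairpins 1 was higher (Bbc3) and 2 were lower (Trib3 and Dnajc10). The largest rise of that list with shRNA-1 was in Cebpb (log2 fold change 1.53 ± 0.22, edgeR adjusted p = 0.000577). With shRNA-2 it was in Atf3 (2.55 ± 0.31, adjusted p = 5.46e-05). The largest fall with shRNA-1 was in Nupr1 (-2.26 ± 0.30, adjusted p = 0.000379). Cebpb, Atf3 and Nupr1 were not called with the other hairpin. Ddit4 was lower with shRNA-1 (-0.70 ± 0.17, adjusted p = 0.00766) and higher with shRNA-2 (0.83 ± 0.16, adjusted p = 0.00129). Atf4, the transcription factor whose translation PERK favours, had 2106, 1494 and 1188 CPM with shRNA-1, 1217, 732 and 604 CPM with shRNA-2 and 1977, 2021 and 2659 CPM in the controls. The shRNA-2 libraries were all below the controls, and shRNA-1 replicate 1 overlapped them. Its log2 fold change was -0.48 ± 0.27 with shRNA-1, not called (edgeR adjusted p = 0.190), and -1.38 ± 0.27 with shRNA-2 (adjusted p = 0.00144). With no filter on low counts the shRNA-1 difference in Atf4 was called lower.

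Trib3, a pseudokinase and target of ATF4 and CHOP, had 27.3, 21.1 and 18.5 CPM with shRNA-1, 19.3, 12.4 and 13.4 CPM with shRNA-2 and 34.6, 33.3 and 43.3 CPM in the controls. All knockdown libraries were below all controls. On the log2 scale the fold change was -0.74 ± 0.19 with shRNA-1 (edgeR adjusted p = 0.0131) and -1.30 ± 0.20 with shRNA-2 (adjusted p = 0.000243). Dropping shRNA-1 replicate 2 or 3 or control replicate 3 ended the shRNA-1 call, and so did the ribosomal RNA covariate (adjusted p = 0.567).

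Ddit3, which encodes CHOP, the factor that links prolonged ER stress to apoptosis, had 4.83, 9.06 and 9.78 CPM with shRNA-1, 11.7, 12.2 and 16.8 CPM with shRNA-2 and 8.26, 9.75 and 18.2 CPM in the controls. Both hairpin groups overlapped the control, and neither log2 fold change was called (-0.61 ± 0.32 and 0.16 ± 0.30, edgeR adjusted p = 0.160 and 0.681). With the replicate number as a block (adjusted p = 0.0380) and with no filter on low counts, Ddit3 was called lower with shRNA-1. Ppp1r15a, which encodes GADD34 and reverses the translation block, had 3.51, 3.84 and 2.21 CPM with shRNA-1, 8.34, 5.18 and 3.98 CPM with shRNA-2 and 4.00, 3.91 and 4.60 CPM in the controls. The shRNA-1 libraries lay just below the controls, the shRNA-2 libraries overlapped them, and Ppp1r15a was not called either (log2 fold changes -0.39 ± 0.30 and 0.49 ± 0.28, adjusted p = 0.344 and 0.174). It was called higher with shRNA-2 in the fit with the ribosomal RNA covariate (adjusted p = 0.0276). Dnajc10 (ERdj5), a disulfide reductase of the ER, averaged 95.8 ± 2.44 CPM with shRNA-1, 87.8 ± 7.04 with shRNA-2 and 140.2 ± 6.58 in the controls and was lower with both (log2 fold changes -0.55 ± 0.11 and -0.67 ± 0.11, adjusted p = 0.00283 and 0.000353). The shRNA-1 call on Dnajc10 was lost with the ribosomal RNA covariate (adjusted p = 0.0654). Bbc3, which encodes the pro-apoptotic PUMA, was higher with both (0.52 ± 0.16 and 0.61 ± 0.15), a call that was lost for shRNA-1 without shRNA-1 replicate 2 or 3, control replicate 1 or 2, or with the ribosomal RNA covariate (adjusted p = 0.246). Total-count scaling ended the Bbc3 call with both hairpins.

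On the ATF6 side, the list of ATF6 and CREB3 processing had 10 genes tested, with 1 higher and 9 not called with shRNA-1 and 4 higher, 2 lower and 4 not called with shRNA-2. Creb3, an ER-anchored transcription factor that is cut in the Golgi like ATF6, had 23.3, 22.7 and 27.2 CPM with shRNA-1, 30.6, 37.0 and 37.4 CPM with shRNA-2 and 11.5, 9.55 and 9.33 CPM in the controls. The 3 groups were separate, with shRNA-2 highest and the control lowest. Creb3 was 2.41-fold higher with shRNA-1 (log2 fold change 1.27 ± 0.14, edgeR adjusted p = 0.000171) and 3.46-fold higher with shRNA-2 (1.79 ± 0.14, adjusted p = 3.39e-06), calls kept in every alternative fit run. Mbtps1, the site-1 protease that cuts ATF6, had 105, 104 and 86.8 CPM with shRNA-1, 62.8, 49.2 and 51.5 CPM with shRNA-2 and 124, 115 and 109 CPM in the controls. It was lower with shRNA-2 (log2 fold change -1.09 ± 0.13, adjusted p = 5.29e-05) and not called with shRNA-1 (-0.23 ± 0.13, adjusted p = 0.189), and the hairpins differed by 0.86 ± 0.13 (adjusted p = 0.000377). Nfyb was also lower with shRNA-2 (-0.47 ± 0.14, adjusted p = 0.0170) and not called with shRNA-1 (0.05 ± 0.14). The Nfyb call was lost without shRNA-2 replicate 3 or control replicate 1.

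**Figure D4:**
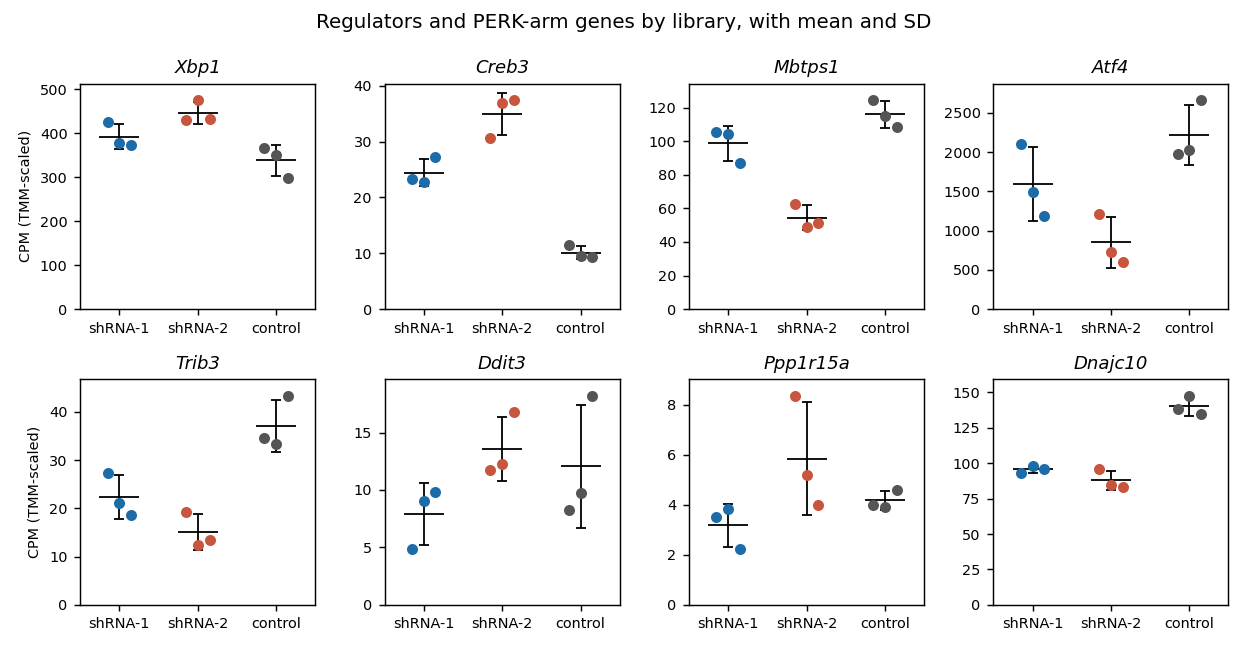
TMM-scaled CPM of Xbp1 and 7 genes outside the 34 in each library, with the group mean and SD (n = 3 each). Creb3 is higher and Dnajc10 and Trib3 are lower than every control in all 6 knockdown libraries, while Ddit3 overlaps the controls with either hairpin.

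Among 30 other ER folding enzymes, 3 were higher and 6 lower with shRNA-1, and 7 were higher and 5 lower with shRNA-2, in all 9 and 12 of the 30, shares below the 34.7% and 48.7% of all genes. Ppib, the ER cyclophilin, was higher with both hairpins (log2 fold changes 0.91 ± 0.15 and 1.29 ± 0.15, edgeR adjusted p = 0.00102 and 3.48e-05), as was Erp44, which retains immature secretory proteins (0.70 ± 0.11 and 0.81 ± 0.11, adjusted p = 0.000901 and 0.000111). Prkcsh, the beta subunit of glucosidase II, and Rcn1, a calcium-binding protein of the ER lumen, were lower with both. Prkcsh had log2 fold changes of -0.95 ± 0.16 and -0.47 ± 0.16, and its shRNA-2 call was lost without shRNA-2 replicate 2 or 3 or control replicate 2 or 3. Rcn1 had -0.84 ± 0.19 and -0.81 ± 0.18. The shRNA-1 calls on Prkcsh and Rcn1 were lost with the ribosomal RNA covariate (adjusted p = 0.0722 and 0.146), and so was the shRNA-2 call on Prkcsh (0.102).

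Of 26 other genes of ER-associated degradation, 5 were higher and 2 lower with shRNA-1, and 5 were higher and 4 lower with shRNA-2, in all 7 and 9 of the 26, again below the shares of all genes. Tmub1, a membrane adaptor of the degradation pathway, was the gene of that list higher with both (log2 fold changes 0.65 ± 0.15 and 0.68 ± 0.15, edgeR adjusted p = 0.00783 and 0.00341). Its shRNA-1 call was lost with the ribosomal RNA covariate (adjusted p = 0.114) and with total-count scaling. Man1b1, a mannosidase that trims glycoproteins before degradation, was lower with shRNA-1 (-0.73 ± 0.12, adjusted p = 0.000975) and not called with shRNA-2 (-0.07 ± 0.11, adjusted p = 0.650). The hairpins differed in Man1b1 by -0.66 ± 0.12 (adjusted p = 0.000910).

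Of 31 other genes of translocation and glycosylation, 7 were higher and 6 lower with shRNA-1, and 10 were higher and 4 lower with shRNA-2, and 5 were higher and 3 lower with both. The 13 of 31 called with shRNA-1 lay above the 34.7% of all genes, and the 14 called with shRNA-2 near the 48.7%. Sec61g, the gamma subunit of the channel, was higher with both (log2 fold changes 1.11 ± 0.29 and 1.42 ± 0.28, edgeR adjusted p = 0.0117 and 0.00159), and its shRNA-1 call was lost without shRNA-1 replicate 2 or control replicate 2 or 3 and with total-count scaling. Ost4, a small subunit of the oligosaccharyltransferase, was higher with both (1.32 ± 0.19 and 0.80 ± 0.19, adjusted p = 0.000619 and 0.00439). Srp72 and Srp68, subunits of the signal recognition particle that brings ribosomes to the ER, were lower with both. Srp72 had log2 fold changes of -0.89 ± 0.15 and -0.73 ± 0.15 (adjusted p = 0.00134 and 0.00195). Srp68 had -0.73 ± 0.13 and -0.36 ± 0.12 (adjusted p = 0.00134 and 0.0314), and its shRNA-2 call was lost without any 1 of the 3 controls or without shRNA-2 replicate 2 or 3. The shRNA-1 calls on both were lost with the ribosomal RNA covariate (adjusted p = 0.0723 and 0.0588), and so was the shRNA-2 call on Srp68 (0.0923).

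Of 32 genes of transport between the ER and the Golgi, 7 were higher and 4 lower with shRNA-1, and 10 were higher and 1 lower with shRNA-2, and 5 were higher with both. The 11 of 32 called with shRNA-1 were near the 34.7% of all genes, and the 11 called with shRNA-2 below the 48.7%. Golt1b, a Golgi transport protein, and Sec22b, a SNARE of vesicles that leave the ER, had the largest mean absolute log2 fold changes over both hairpins among those 5. Golt1b had log2 fold changes of 0.94 ± 0.14 and 0.47 ± 0.14 for shRNA-1 and shRNA-2 (edgeR adjusted p = 0.000733 and 0.0152), and Sec22b had 0.75 ± 0.12 and 0.46 ± 0.12 (adjusted p = 0.00101 and 0.00792). Both shRNA-2 calls were lost with total-count scaling, and that on Golt1b also with the ribosomal RNA covariate (adjusted p = 0.0754). Sec16a was lower with shRNA-1 (log2 fold change -0.57 ± 0.18, edgeR adjusted p = 0.0298) and not called with shRNA-2 (-0.40 ± 0.18). Tmed2 was lower with shRNA-2 (-0.76 ± 0.24, adjusted p = 0.0201) and not called with shRNA-1 (-0.06 ± 0.24). The Sec16a call was lost without shRNA-1 replicate 1 or control replicate 2 or 3, and with the ribosomal RNA covariate. The Tmed2 call was lost without shRNA-2 replicate 3 or control replicate 2 or 3.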

How the data were processed

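Each library came as a deposited table of 39179 unnormalized read counts, listed by gene symbol, which the authors made with STAR 2.3.0e and HTSeq 0.6.0 on mm10, per the submitters' processing notes. Per the labels' protocols, first-strand cDNA was primed with oligo-dT and the second strand with random decamers. No source used here gives the strand setting or the annotation. Entries were summed by symbol. One model held all 9 libraries and the group alone (edgeR 4.0.16, R 4.3.3, filterByExpr, TMM, quasi-likelihood test, Benjamini-Hochberg threshold 0.05), tested on simulated data beforehand. Library totals are given with the levels, and total counts limit the precision of low genes.

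Members, pathway lists and the rule on which genes to name were chosen with earlier results of these data known. Members called with both hairpins, called between hairpins, or called otherwise by size within a role are given in every library. Genes outside the list were up to 2 rises and 2 falls per pathway list with a mean of at least 5 CPM, plus Syncrip, Atf4, Ddit3, Ppp1r15a and Trib3. Hoxa9 was added as a gene tied to the label, and Atf3, Cebpb, Nupr1 and Ddit4 to show the range of the PERK and CHOP list.

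Gene positions and exon overlaps come from GENCODE M21 on GRCm38, and 10 of the 34 genes have an exon that overlaps another gene's. The ones not named with their values are Eif2ak3 (Gm43292) and Sec61a1 (Gm44170), both with the overlap on the other strand. Replicate libraries of a group differed by more than sampling noise (chi-square per gene 18.6 to 135). Same-numbered shRNA-2 and control libraries deviated together, though weakly (r = 0.189, 0.231 and 0.146 across genes). By that check, which comes from the data and not the labels, these numbers may pair libraries. Values are from the model without a block, and the block was an alternative. Same-numbered shRNA-1 and control libraries did not all deviate together (r = 0.284, -0.0521 and 0.181), nor did those of shRNA-1 and shRNA-2 (0.401, -0.151 and 0.319). A pair of unlike numbers, shRNA-1 replicate 3 and shRNA-2 replicate 2, had r = 0.326.

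The alternatives were DESeq2 size factors, total counts, no filter, a minimum of 5 CPM in 3 libraries, the Wald test of DESeq2 1.42.0, limma-voom (limma 3.58.1), a replicate block, a ribosomal RNA covariate, fits of only 2 groups, stricter calls (adjusted p under 0.01, or 2-fold and more), and libraries left out.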

Additional observations from a re-analysis of the deposited data

Results flagged for a closer look

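In 2 genes the hairpins were both called against the control, in opposite directions, and their effects differed by the test of the difference itself. For Pdia6, the isomerase that limits IRE1, the log2 difference between shRNA-1 and shRNA-2 was 1.45 (edgeR adjusted p = 1.34e-05), with every shRNA-1 library above and every shRNA-2 library below the controls. For Os9, the lectin of the HRD1 complex, the log2 difference was -1.34 (edgeR adjusted p = 0.000125), with every shRNA-1 library below and every shRNA-2 library above the controls. What sets the hairpins apart in these genes was not tested.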

How the results depend on the processing

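Of the counts reported, those of members called were 13 with shRNA-1, 20 with shRNA-2, 15 between the hairpins and 8 higher with both. With total-count scaling 3 members were higher with both and 2 were lower with both. With the ribosomal RNA covariate 4 members were called with shRNA-1 and 4 were higher with both, and 1358 genes in all were called with shRNA-1, against 4389 without it. The covariate overlapped with the shRNA-1 comparison, so these losses cannot be told apart from a loss of precision. At an adjusted p under 0.01, 7 members were called with shRNA-1, and 2300 genes in all with shRNA-1 and 3318 between the hairpins. With a change of at least 2-fold required, 4 members were called with shRNA-1, 6 with shRNA-2, 6 between the hairpins and 2 higher with both, and 1437, 2578 and 2108 genes in all in these 3 comparisons. Leaving out shRNA-1 replicate 3 and shRNA-2 replicate 1 together put 1 member lower with both.

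Leaving out 1 library at a time gave 8 to 16 members called with shRNA-1, 15 to 20 with shRNA-2, 12 to 15 between the hairpins, 6 to 8 higher with both and 0 to 1 lower with both. Over all genes the counts ran from 2916 to 5178 with shRNA-1, 5141 to 6432 with shRNA-2 and 4028 to 5412 between the hairpins. The one member lower with both was Hspa5, without shRNA-2 replicate 1.

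With the replicate number as a block, 15 members were called with shRNA-1, 21 with shRNA-2, 16 between the hairpins and 9 higher with both. For shRNA-2, where same-numbered libraries deviated weakly with the controls, Hyou1 was the one member whose call changed. For shRNA-1, where they did not all do so, Herpud1 and Edem2 were called (edgeR adjusted p = 0.0318 and 0.0432). Between the hairpins Herpud1 was called (0.0479).

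Of 1935 values of single members under the alternatives, 45 gained a call and 103 lost one, 86 that were called in neither fit changed sign, and no called value reversed. The cause of the changes was not tested. Derl3 rests on 4 to 60 counts per library, so its depth limits the precision of its fold change.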
